A study of Mus musculus with 16 samples.

Results

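The Ly6 surface protein family was followed in mouse bone marrow-derived macrophages (BMMs) given a γ-secretase inhibitor (GSI). The members were the 9 genes of the deposited count table whose symbols are Ly6i, Ly6a, Ly6c1, Ly6c2, Ly6e, Ly6d, Ly6k, Ly6g and Ly6h, out of 47069 genes in all. The family was taken up because Ly6i was among the largest increases with GSI, so the change of Ly6i is described here and carries no test, while the other 8 genes were included by name. All BMMs came from C57BL/6 mice of 8 to 10 weeks, were grown for 7 days with L929-conditioned medium, were primed overnight with IFNγ (10 ng/mL), and were activated for 1 hr with Salmonella LPS (100 ng/mL) and IgG-opsonized ovalbumin (LPS/ICs). The GSI group received DAPT at 25 μM, which blocks the cleavage of Notch receptors and of other γ-secretase substrates, and the control group received 0.01% DMSO. The methods of the study place this treatment in the night before activation, although shorter pretreatments are given for other experiments, and the labels of these samples state no time for it. Each group had 2 replicates with 4 run columns each, which were summed to 1 library per replicate. Whether the replicates came from different mice is not stated, so the p-values measure the spread between these libraries only, which may be technical.

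Ly6 proteins are small cell surface proteins with a three-finger fold held by disulfide bonds, and most are tethered to the membrane by a glycosylphosphatidylinositol (GPI) anchor. In the mouse, many of their genes lie side by side in a cluster that arose by duplication, and several of them are used as markers of blood cells. Ly6a (Sca-1) marks stem cells and activated lymphocytes, and Ly6g marks neutrophils. The Ly6C antigen, encoded by Ly6c1 and Ly6c2, marks inflammatory monocytes. Ly6a, Ly6c2 and Ly6e are known to respond to interferons.

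All 9 members lie on chromosome 15 of GRCm38, between positions 74762056 and 75567255, a stretch of 805.2 kb. Ly6i occupies 74979534 to 74983430 on the minus strand. Ly6e starts 28.4 kb to its left (74955051 to 74959905, plus strand), and Ly6a starts 14.6 kb to its right (74994877 to 74998031, minus strand). Ly6c1 (75044018 to 75048830) and Ly6c2 (75108158 to 75111970) follow on the minus strand, and Ly6g (75155240 to 75159126) on the plus strand. Ly6d and Ly6k lie at the left end and Ly6h at the right end. All are annotated as protein-coding, and no exon of another gene lies across from any of them except for 395 bases of Ly6k.

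Because the genes of the cluster are alike in sequence, the part of the messenger RNA that tells them apart decides how well reads can be assigned. The coding sequences of Ly6i and Ly6a, both 405 bases with the stop codon, aligned without gaps and were 86.4% identical. Ly6i was 81.7% identical to Ly6c1, 81.5% to Ly6c2, 78.0% to Ly6g and 51.2% to Ly6e, and Ly6c1 and Ly6c2 were 97.7% identical to each other. The first 90 coding bases of the 5 members that were expressed are shown from GENCODE M21 (GRCm38), 5′ to 3′, with letters that differ from Ly6i at the same position in capitals, to show how close Ly6i stands to its neighbors.
Ly6i: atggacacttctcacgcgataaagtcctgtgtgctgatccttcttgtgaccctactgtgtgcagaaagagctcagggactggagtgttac
Ly6a: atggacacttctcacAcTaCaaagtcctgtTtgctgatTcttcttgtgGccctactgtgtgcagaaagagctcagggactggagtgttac
Ly6c1: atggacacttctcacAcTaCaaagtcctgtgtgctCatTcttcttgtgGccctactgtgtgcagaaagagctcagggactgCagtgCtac
Ly6c2: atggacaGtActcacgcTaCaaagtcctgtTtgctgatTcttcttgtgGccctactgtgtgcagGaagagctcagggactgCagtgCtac
Ly6e: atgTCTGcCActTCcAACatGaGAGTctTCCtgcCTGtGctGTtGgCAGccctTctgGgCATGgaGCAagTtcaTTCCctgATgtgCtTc

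In this stretch Ly6a differed from Ly6i at 6 bases, Ly6c1 at 8, Ly6c2 at 10 and Ly6e at 47. The longest identical run of Ly6i and Ly6a was 80 bases (coding bases 50 to 129), whereas a later stretch of 90 coding bases differed at 28 positions, as the next pair shows with the same use of capitals.
Ly6i: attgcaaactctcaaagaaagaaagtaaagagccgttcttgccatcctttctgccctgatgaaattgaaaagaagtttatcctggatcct
Ly6a: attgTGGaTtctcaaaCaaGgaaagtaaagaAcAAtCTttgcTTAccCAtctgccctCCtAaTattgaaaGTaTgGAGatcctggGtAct

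Over the whole annotated transcripts, 4.76% of the 50-base words of Ly6i also occurred in another gene, against 19.0% for Ly6a, 32.8% for Ly6c1 and 14.4% for Ly6c2, and 0 for Ly6e. With words of 75 bases the shares were 0.519% for Ly6i, 6.33% for Ly6a, 19.0% for Ly6c1 and 9.46% for Ly6c2. The 50-base words of Ly6c2 recurred in 266 genes, while those of 75 bases recurred in Ly6c1 alone. The read length is not given in the sources used here. Reads from shared words cannot be assigned to 1 gene, so the values of Ly6c1 and Ly6c2 in particular are uncertain as to which of the pair they belong to. Words of Ly6c1 also occurred in Ly6a at both lengths, and in Ly6i at 50 bases. Whether reads of Ly6a, which had far more counts, entered the values of Ly6c1 was not tested.

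Of the 9 members, 6 had at least 1 count and 5 had enough counts to be tested (Ly6i, Ly6a, Ly6c1, Ly6c2 and Ly6e). The libraries held between 42694655 and 56932059 counts. Levels are given in CPM, counts scaled to the TMM-adjusted library size, and levels of different genes are compared only in FPKM, which further divides CPM by the kilobases of the gene's merged exons. In FPKM, the order of the 5 tested members was the same in both groups. Ly6a was the highest, with 1465 and 1539 FPKM with DMSO and 1560 and 1887 FPKM with GSI. Ly6e was next, with 868 and 963 FPKM with DMSO and 858 and 899.6 FPKM with GSI. Ly6i stood at 3.54 and 3.86 FPKM with DMSO, and at 33.3 and 36.9 FPKM with GSI. Ly6c1 (1.44 to 1.62 FPKM with DMSO, 1.41 to 1.51 with GSI) and Ly6c2 (0.135 to 0.178 and 0.214 to 0.264 FPKM) were the lowest that could be measured. Within each group, no 2 of these 5 genes overlapped. These macrophages thus held Ly6a and Ly6e messages in abundance and only traces of those of Ly6c1 and Ly6c2.

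**Figure D1:**
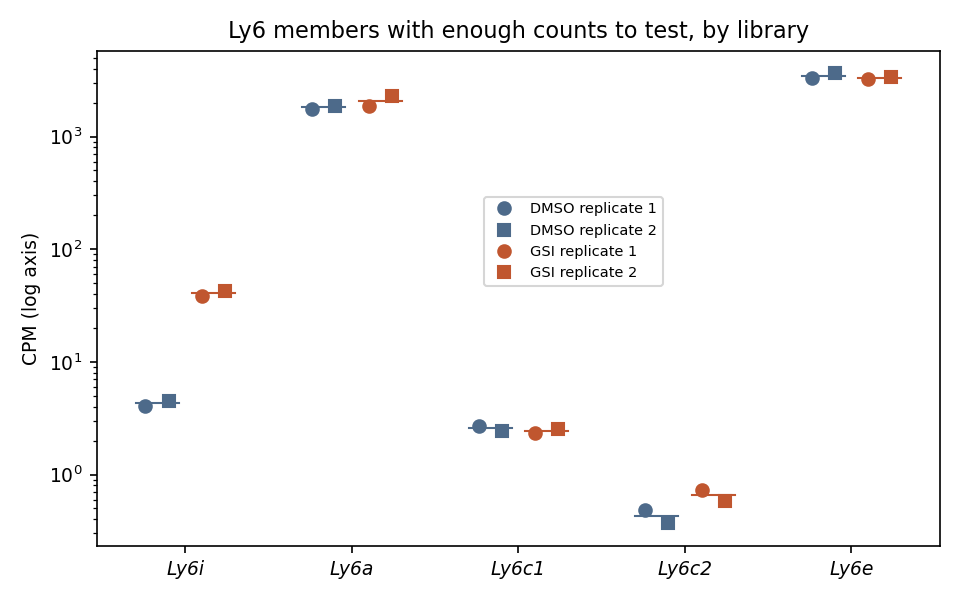
CPM on a log axis (vertical) of the 5 tested Ly6 members (horizontal) in the 2 DMSO and 2 GSI libraries, with points for libraries and short lines for group means. Ly6i moved from about 4 CPM in both DMSO libraries to 38.5 and 42.6 CPM in both GSI libraries, while the points of Ly6e and Ly6c1 in the 2 groups overlap.

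Ly6i, which encodes a GPI-anchored protein of the Ly6a and Ly6c branch, rose with GSI. It had 176 and 253 counts in the DMSO libraries, which were 4.09 and 4.46 CPM. In the GSI libraries it had 1859 and 2104 counts, which were 38.5 and 42.6 CPM. Both GSI libraries lay far above both DMSO libraries, and the fitted level was 9.44-fold higher with GSI, or 3.24 as the log2 fold change (log2 FC) with a standard error (SE) of 0.0998 (n = 2 per group). This value is how the gene was chosen: Ly6i ranked 8 among the increases of 13211 tested genes, and 3 among the 10957 tested genes that averaged at least 1 CPM. Single runs, whose sums these values are, held 35 to 65 counts with DMSO and 435 to 543 with GSI. Leaving out 1 library in turn moved the log2 FC between 3.16 and 3.31.

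Ly6a encodes Sca-1, the most widely used antibody target of the family. It had 1765 and 1855 CPM with DMSO and 1879 and 2274 CPM with GSI. Both GSI libraries were above both DMSO libraries, but GSI replicate 1 only narrowly so. The log2 FC of 0.20 (SE 0.0855, 95% interval 0.02 to 0.38) did not pass the threshold of 0.05 for the false discovery rate (FDR, the Benjamini-Hochberg adjusted p of edgeR's quasi-likelihood fit), with FDR = 0.07 in edgeR. The call depended on the processing and on single libraries. With the replicate number as a block the log2 FC was 0.19 (edgeR FDR = 0.014), without a filter on low counts it was 0.21 (edgeR FDR = 0.0128), and with the runs as separate samples it was 0.20 (edgeR FDR = 0.000204), a fit that sets the change against the noise between runs of 1 library rather than between replicates. Without GSI replicate 1 the log2 FC was 0.33 (edgeR FDR = 0.000603), and without GSI replicate 2 it was 0.06 (edgeR FDR = 0.66). Over all the alternative fits, including the one by DESeq2, the log2 FC of Ly6a ran from 0.06 to 0.33 and its FDR from 0.000204, in the fit of separate runs, to 0.66. Without that fit the lowest FDR was 0.000603.

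Ly6e encodes a widely expressed member that serves as a receptor in placental development and acts on the entry of several viruses. It had 3283 and 3643 CPM with DMSO and 3245 and 3404 CPM with GSI. The groups overlapped, and the log2 FC was -0.06 (SE 0.0779, 95% interval -0.22 to 0.10, edgeR FDR = 0.578). For this most deeply counted member the interval of the fold was narrow, from 0.858 to 1.07.

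Ly6c1 and Ly6c2 encode the Ly6C antigen. Ly6c1 had 117 and 137 counts with DMSO, against 114 and 125 with GSI. The groups overlapped in CPM, with a log2 FC of -0.06 (SE 0.165, 95% interval -0.41 to 0.28, edgeR FDR = 0.79). Ly6c2 was counted 21 times in each of the DMSO libraries and 35 and 29 times in the GSI libraries. Its GSI libraries were above its DMSO libraries, and the log2 FC of 0.63 (SE 0.325) did not pass the threshold (edgeR FDR = 0.13). The interval of Ly6c2 ran from -0.05 to 1.31 and therefore included a rise of more than 2-fold as well as no change. With both genes summed, since their reads are hard to tell apart, the log2 FC was 0.06 (edgeR FDR = 0.798). The sum does not resolve words shared with Ly6a.

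Ly6d, a marker of early B and of epithelial cells, Ly6k, known from the testis, and Ly6h, known from the brain, had 0 counts in all 4 libraries. Ly6g had 1 count, in DMSO replicate 1, and 0 in the other 3 libraries. A count of 0 allows up to 3 counts per library, which here corresponded to 0.0529 to 0.0697 CPM; this limit covers counting error only. These 4 genes gave no fold change.

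Among the 4 tested members other than Ly6i, edgeR called 0 at an FDR under 0.05, and DESeq2 also called 0. Ly6a was called in 4 of the 12 alternative fits, those with the replicate block, without the filter, with separate runs and without GSI replicate 1. At an unadjusted p under 0.05 there was 1, Ly6a. Their median log2 FC was 0.07, beside 0.01 over all genes tested. Of all genes tested, 40.8% were called at this FDR, 19.0% higher and 21.9% lower with GSI. In 2 of these 4 members (Ly6a and Ly6c2) the groups did not overlap, with the GSI libraries higher in both, against 70.6% of all tested genes without overlap and 35.8% without overlap and higher with GSI. Past the FDR threshold and an absolute log2 FC above 1.5 were 2.91% of all genes tested, and of the members Ly6i, whose change the choice had used.

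**Figure D2:**
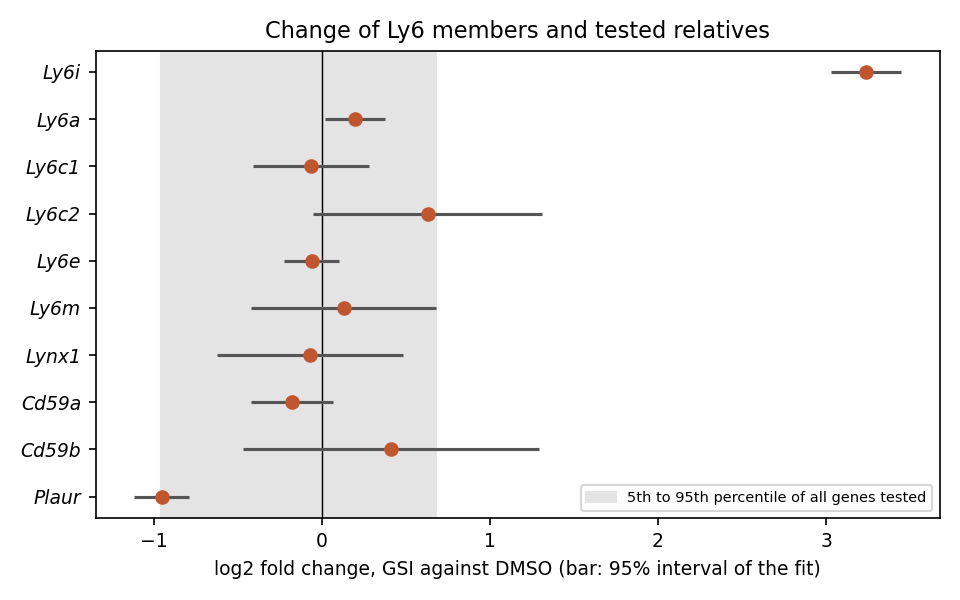
Log2 fold change of GSI against DMSO (horizontal) for the 5 tested members, Ly6m and the 4 other tested relatives of the Ly6/uPAR family, with the 95% interval of the edgeR fit as bars and the 5th to 95th percentile of all tested genes shaded (-0.96 to 0.68). Ly6i lies at 3.24, and of the other genes only the interval of Plaur lies wholly below 0 and only that of Ly6a wholly above 0.

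Counts within a library do not depend on normalization, so Ly6i was also set against its abundant neighbors. Per 1000 Ly6a counts there were 2.32 and 2.40 Ly6i counts in the DMSO libraries, with 95% Wilson intervals that reached up to 2.69 and 2.72. In the GSI libraries there were 20.5 and 18.7, with intervals that began at 19.5 and 17.9. These intervals cover counting error only. Per 1000 Ly6e counts the values were 1.25 and 1.22 with DMSO and 11.9 and 12.5 with GSI. These ratios restate the rise for which Ly6i was chosen, within each library, and are a description. The ratio of Ly6a to Ly6e was 0.538 and 0.509 in the DMSO libraries, against 0.579 and 0.668 in the GSI libraries.

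**Figure D3:**
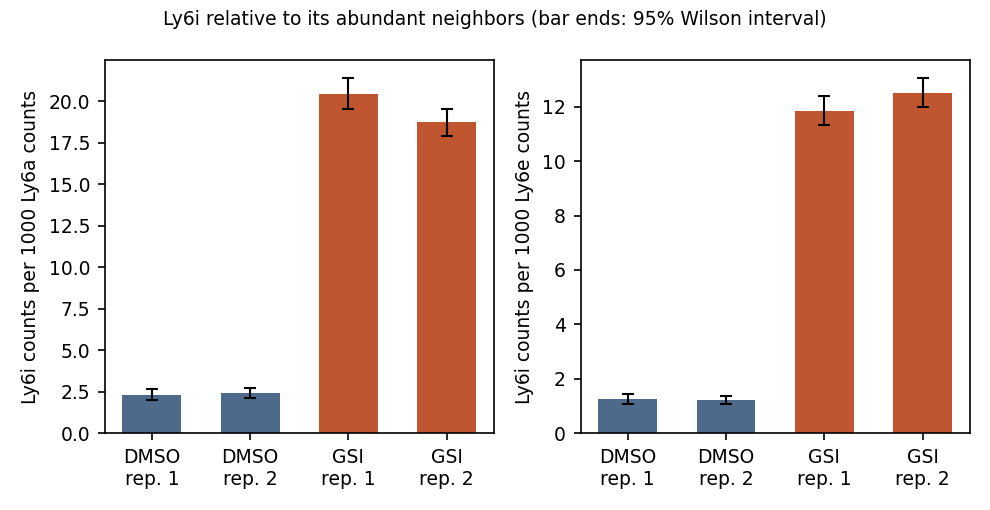
Ly6i counts per 1000 Ly6a counts (left) and per 1000 Ly6e counts (right) in each library, with 95% Wilson intervals that cover counting error only. The DMSO libraries stand at 2.32 and 2.40 on the left and 1.25 and 1.22 on the right, and the GSI libraries at 20.5 and 18.7 and at 11.9 and 12.5.

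The interval between the outermost members holds 38 annotated genes of the count table, 9 of them the members. Of the 29 others, 19 had 0 counts in all libraries, and 1 was tested. That gene was 2010109I03Rik, which RefSeq (GRCm38.p6) lists as Ly6m, another Ly6 gene. It had 37 and 42 counts with DMSO and 38 and 47 with GSI, a log2 FC of 0.13 (SE 0.263, edgeR FDR = 0.727). The pseudogene Gm8000, which starts 5.03 kb from Ly6i and is the gene nearest to it, had 1 to 3 counts per library. I830127L07Rik, a transcribed pseudogene that shares 50-base words with Ly6i, had 5 and 7 counts with DMSO and 4 and 3 with GSI. Of the genes on both sides of Ly6i, those with enough counts (Ly6e, Ly6a, Ly6c1, Ly6c2 and 2010109I03Rik) had log2 FC values from -0.06 to 0.63.

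Beyond the cluster, the 5 nearest tested genes on each side had log2 FC values from -0.07 to 0.71. On the left, Lynx1, itself a Ly6-type gene that encodes a modulator of nicotinic acetylcholine receptors, had 42 and 51 counts with DMSO and 52 and 35 with GSI (log2 FC -0.07, edgeR FDR = 0.862). On the right, 2 genes were called, both higher: Top1mt, a mitochondrial topoisomerase, with a log2 FC of 0.55 (SE 0.149, edgeR FDR = 0.00608), and Gsdmd, the pore-forming gasdermin of pyroptosis, with 0.27 (SE 0.072, edgeR FDR = 0.0048). The other 8 were not called, and 40.8% of all genes tested were. These flanking genes were selected by position, after the results were known.

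**Figure D4:**
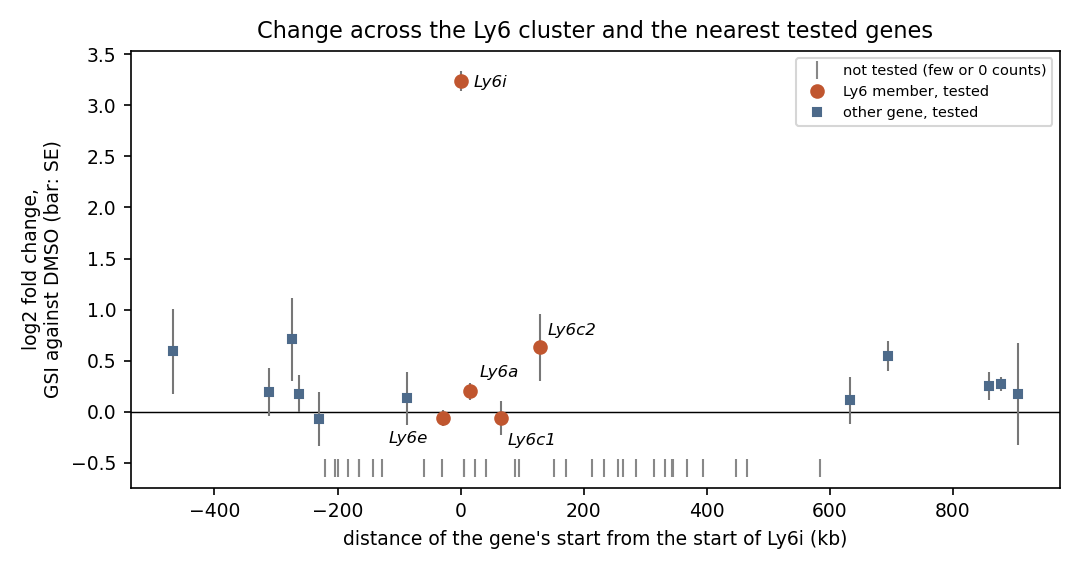
Log2 fold change of GSI against DMSO (vertical, bars for the SE) by the distance in kb of each gene's start from the start of Ly6i (horizontal). Members are round, other tested genes square, and genes with too few counts are ticks; Ly6i stands at 3.24 and the other tested genes of the map between -0.07 and 0.71.

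A list of 37 other genes of the Ly6/uPAR family was written from general knowledge. Of the 35 found in the table, 22 had 0 counts in all libraries and 5 were tested. One was called, beside 40.8% of all genes tested, namely Plaur, the urokinase receptor, which binds the plasminogen activator at the cell surface and has Ly6-type domains. It was counted 10974 and 15453 times with DMSO, against 6088 and 7238 times with GSI. Both GSI libraries were below both DMSO libraries, and the log2 FC was -0.95 (SE 0.0785, edgeR FDR = 7.32e-09), in the direction opposite to Ly6i. In bulk RNA, fewer cells of a type and less RNA per cell cannot be told apart. Cd59a, an inhibitor of the complement membrane attack complex, had 288 and 379 counts with DMSO and 301 and 276 with GSI (log2 FC -0.18, edgeR FDR = 0.234). Its copy Cd59b was at 12 to 31 counts per library (log2 FC 0.41, edgeR FDR = 0.464). The remaining tested genes were Lynx1 and 2010109I03Rik.

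Since most Ly6 proteins carry a GPI anchor, the enzymes that make and attach it were read as a list. All 29 genes found were tested. With GSI, 4 were higher, 2 lower and 23 not called, which is 20.7% called beside 40.8% of all genes tested, with a median log2 FC of 0.08 beside 0.01. The largest changes were those of Dpm3, a subunit of the enzyme that makes the mannose donor, at 0.49 (edgeR FDR = 0.00109), Pign, which adds ethanolamine phosphate to the anchor, at -0.43 (edgeR FDR = 0.000105), and Pigg, which also adds ethanolamine phosphate, at 0.38 (edgeR FDR = 0.00427). Piga, the catalytic subunit of the first step, had a log2 FC of -0.15 (edgeR FDR = 0.351).

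Among 25 other GPI-anchored surface proteins of leukocytes, 13 were tested, of which 2 were higher, 7 lower and 4 not called, with a median log2 FC of -0.21. That is 69.2% called, beside 40.8% of all genes tested (19.0% higher and 21.9% lower). The largest changes were decreases: Cd24a, a small mucin-like protein, at -1.06 (47 and 62 counts with DMSO, 25 and 26 with GSI, edgeR FDR = 0.00334), Plaur at -0.95, and Ulbp1, a ligand of the NKG2D receptor, at -0.91 (edgeR FDR = 6.86e-06). The mouse Ulbp1 protein is known to span the membrane rather than to carry a GPI anchor, so its place in the list is doubtful. Cd14, the LPS co-receptor, fell as well, at -0.64 (edgeR FDR = 1.6e-06). The 2 that rose were Bst2 (tetherin), an interferon-induced restriction factor, at 0.80 (edgeR FDR = 7.82e-08), and Cd52 at 0.44 (edgeR FDR = 9.11e-05). Plaur and Cd59a are in both lists.

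As Ly6 genes respond to interferons, 35 genes of the interferon response were read beside them, and all were tested. With GSI, 17 were higher, 5 lower and 13 not called, with a median log2 FC of 0.18. That is 62.9% called, beside 40.8% of all genes tested (19.0% higher and 21.9% lower). The largest changes were rises. Cxcl9, an IFNγ-induced chemokine, rose from 90386 and 108427 counts with DMSO to 271818 and 226696 with GSI, a log2 FC of 1.35 (edgeR FDR = 4.78e-10). Ifnb1, the cytokine IFNβ, had 438 and 744 counts with DMSO and 1308 and 1377 with GSI (log2 FC 1.23, edgeR FDR = 7.51e-09), and Isg15, an interferon-induced ubiquitin-like protein, had a log2 FC of 0.79 (edgeR FDR = 2.34e-08). The 5 that fell were receptor chains and their kinases, namely Ifngr1 (-0.62), Jak2 (-0.52), Ifnar1 (-0.36), Ifnar2 (-0.22) and Jak1 (-0.20). Ly6a, with 0.20, Ly6c2, with 0.63, and Ly6e, with -0.06, were not called. They lay within the range of this list, from -0.62 to 1.35. They also lay within the 5th to 95th percentile of all genes tested, -0.96 to 0.68, so their place in that range tells little. Ly6i, chosen for its rise, lay above the range of the list at 3.24.

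The genes whose values over the 4 libraries were most like those of Ly6i, by the Euclidean distance of centered log2 CPM (prior count 2) among all genes tested, were Nos2 (distance 0.161), Wdr20rt (0.247), F10 (0.289), Saa3 (0.337) and Il23r (0.389). Nos2 encodes inducible nitric oxide synthase, F10 coagulation factor X, Saa3 an acute phase protein and Il23r a chain of the IL-23 receptor. Wdr20rt was at 2 and 3 counts with DMSO and 39 and 35 with GSI. This likeness rests on 4 libraries and mainly on 1 difference between the groups, and it is a description.

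Some Ly6 genes mark other blood cells, so markers were read in every library. The counts called stand beside 19.0% higher and 21.9% lower among all genes tested. The 12 macrophage markers were all tested, with 9 lower, 1 higher and 2 not called. They summed to 12741 and 12957 CPM in the DMSO libraries, against 9939 and 10845 CPM in the GSI libraries. The 10 monocyte markers summed to 359.5 and 358.6 CPM with DMSO and 247 and 253 CPM with GSI, with 5 of 7 tested lower and 1 higher. Ccr2 was lower at a log2 FC of -1.80 (edgeR FDR = 4.9e-12). Ly6c1 and Ly6c2 were not called, and the interval of Ly6c2, at 21 to 35 counts per library, was wide. The 16 neutrophil markers summed to 62.5 and 65.4 CPM in the DMSO libraries, against 112 and 118 CPM in the GSI libraries, with 2 of 7 tested higher and 0 lower. Most of this sum was Csf3r, which macrophages also express, at 60.8 and 62.5 CPM with DMSO and 109 and 115 CPM with GSI, whereas Elane, Prtn3 and Retnlg were at 0 in all libraries and Ly6g, as given above, had 1 count. Lcn2 had 6 and 21 counts with DMSO and 44 and 51 with GSI.
Of the 11 T cell markers, Cd3g and Cd8b1 were at 0 and Cd3e at no more than 2 counts, and the list summed to at most 2.67 CPM with DMSO and to 6.78 to 7.55 CPM with GSI, with 2 of 3 tested higher and 0 lower. Those were Cd247, a signaling chain of the T cell receptor complex, at 34 and 49 counts with DMSO, against 177 and 187 with GSI (log2 FC 2.16, edgeR FDR = 1.42e-08), and Lck, a kinase of T cell receptor signaling (log2 FC 1.14, edgeR FDR = 0.000147). The 10 B cell and plasma cell markers summed to 39.0 to 42.8 CPM and 47.2 to 48.0 CPM, with 2 of 4 tested higher and 1 lower. Most of this sum was Sdc1, which plasma cells share with other cells, at 25.2 and 30.2 CPM with DMSO and 39.6 and 40.5 CPM with GSI (edgeR FDR = 4.8e-05). Ighm, the heavy chain of IgM, fell at a log2 FC of -1.70 (edgeR FDR = 8e-10). The 8 endothelial markers summed to 42.9 to 43.2 CPM and 82.6 to 84.6 CPM, with 2 of 4 tested higher and 1 lower and Tek and Emcn at 0. Most of that sum was Kdr, a VEGF receptor, and Vwf, the von Willebrand factor, which rose at a log2 FC of 1.63 and 0.71 (edgeR FDR = 2.28e-11 and 1.67e-07), while Pecam1, an adhesion molecule, fell at -1.01 (edgeR FDR = 0.00211). The 10 stem and progenitor markers summed to 73.7 to 78.1 CPM and 149.5 to 167.5 CPM, mostly from Procr, with 2 of 5 tested higher and 1 lower. Procr, the endothelial protein C receptor, rose at a log2 FC of 1.29 (edgeR FDR = 7.78e-11) and Kit, the stem cell factor receptor, at 0.83 (edgeR FDR = 0.0233), while Cd34, a sialomucin, fell at -2.05 (edgeR FDR = 1.66e-10). The part of these marker lists in the change of Ly6i was not tested.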

How the data were processed

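The deposited values were raw counts of reads per gene and run column, for which the authors prepared stranded poly(A) libraries, sequenced them on a NextSeq 500, trimmed adapters with Trimmomatic, aligned to mm10 with STAR (2.5.0a in the submitters' processing notes, which name mm9 as well) and counted with HTSeq. The HTSeq mode and strand setting are not given in the sources used here. The 4 runs of a replicate differed by no more than sampling noise (chi-square per degree of freedom 1.01 to 1.03, against 14.7 and 16.6 between replicates) and were summed.

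Genes were tested with edgeR 4.0.16 (glmQLFit, glmQLFTest) in R 4.3.3, with filterByExpr, TMM, group as the factor and Benjamini-Hochberg correction over 13211 genes. Standard errors were the size of the log2 fold change over the square root of F. DESeq2 1.42.0 was an alternative. In simulated libraries of 13019 tested genes, 97.9% of 96 genes changed 4-fold and 85.9% of 99 changed 2-fold were called, and 0.0468% of unchanged genes. The simulation used dispersions from the same fit and changed few genes, evenly up and down. In the real data 40.8% of genes were called, so these rates hold for the simulated setting only. Positions, lengths and sequences came from GENCODE M21, which held 98.77% of the gene IDs. Coding sequences were aligned globally with Biopython 1.88.

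The members, lists and tests were chosen with earlier results of these data known. Named are all members, the tested relatives and genes of the cluster, the 3 largest called changes of the GPI and interferon lists and the 5 patterns nearest to Ly6i. Cd14, Bst2, Cd52, Piga, the 5 fallen interferon genes, the flanking genes and the single cell type markers were chosen after their values were seen.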

Additional observations from a re-analysis of the deposited data

How the results depend on the processing

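The number of members called, counting Ly6i, whose call the choice of members fixes, was 1 as reported and 2, with Ly6a added, in the fit without a filter on low counts, with the replicate block and with the runs as separate samples, and 1 to 2 when 1 library was left out. The log2 fold change of Ly6a was 0.21 without the filter, 0.19 with the block and 0.20 with separate runs (edgeR FDR = 0.0128, 0.014 and 0.000204). The replicate numbers are shared between the groups but nothing says that they pair the libraries, and deviations of same-numbered libraries correlated at 0.155 over genes; the replicate block raised the genes called from 5392 to 6444, against 5607 without the filter, 7582 with separate runs, 4063 by DESeq2 and 4162 to 4978 without 1 library. The number past both thresholds, 385, was 556 without the filter on low counts, 299 by DESeq2, 154 with at least 10 counts required in every library and 178 with separate runs. Ly6i stayed between 3.16 and 3.31 in all 12 alternatives. The sign of 2 changes near 0 turned: Ly6c1 was at 0.017 without DMSO replicate 1 (lowest with 1 library left out, -0.16) and 0.057 when summed with Ly6c2, and Ly6e at 0.015 without DMSO replicate 2 (lowest with 1 library left out, -0.13). Fits that left a group with 1 library assumed that it varies like the other. By the longest transcript in place of the merged exons, mean FPKM with DMSO and GSI was 1895 and 2175 for Ly6a, 1518 and 1457 for Ly6e and 3.04 and 2.90 for Ly6c1, with the order of the 5 tested members kept. The cause of these shifts was not tested. Ly6c2, at 21 to 35 counts per library, had the widest interval of the tested members.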
